A study of Mus musculus with 24 samples.

Results

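This report is about the liver of wild-type C57Bl/6J mice at weaning, postnatal day 21 (PN21), whose mothers ate a vitamin A deficient diet, set against mice whose mothers ate a vitamin A sufficient one. The members are the 6 arrays labelled PN21 wild type, of 24 arrays in the series: 3 arrays of the vitamin A deficient group and 3 of the vitamin A sufficient control. All 6 carried liver RNA of males. Pregnant dams stayed on a standard breeder diet until embryonic day 4.5 and then received a defined diet, either low in fat and sufficient in vitamin A or deficient in it, until the livers were collected. No source says whether the samples of a group came from separate litters. The control was 1 RNA pool of 4 mice hybridised 3 times, and the deficient group was 3 RNA samples, made from 2 mice, 2 mice and 1 mouse. The other 8 groups held weaning mice of the lines labelled Cyp1b1-null and R-Cyp1b1-null, and newborns (PN0) that were wild type or Cyp1b1-null. Cyp1b1, a P450 enzyme that can act on retinol, is intact in wild-type mice. Each of 3 slides carried 1 control array and 1 deficient array, so the diet difference could be read within a slide 3 times. All 3 readings share the 1 control pool, so agreement over slides does not measure the spread between control mice.

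Vitamin A reaches the liver as retinyl ester, is stored in hepatic stellate cells and leaves as retinol on retinol binding protein. Cells oxidise retinol to retinoic acid, which binds nuclear receptors (RARs) paired with RXRs and switches on target genes, among them the enzymes of the CYP26 family that degrade it. The liver also makes hepcidin, the hormone that lowers iron uptake and release, and turns carbohydrate into fatty acids once a pup moves from milk to solid food.

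At weaning the deficient livers had lower signal on each of the 3 slides for the hepcidin genes Hamp and Hamp2. The glycogen-targeting subunit gene Ppp1r3g and the mucosal glycoprotein gene Dmbt1 lay lower on each slide too. Renin signal lay lower on the brighter Ren1 probe and on the probe named for Ren2, and higher on a dimmer Ren1 probe. Enzymes of fatty acid synthesis and genes of the cell cycle lay lower on all 3 slides as groups. Among retinoid genes Cyp26b1 and Cyp26a1 lay lower, and most genes of retinoid storage and synthesis did not differ in a steady direction. No gene passed the test over all 20533 genes, called at a Benjamini-Hochberg adjusted p under 0.05 in limma (0%, 0 of 20533), and none after cyclic loess scaling (0%). The smallest adjusted p was 0.427, and 193 genes had an unadjusted p under 0.05, of which 158 lay higher and 35 lower in the deficient group. Over all genes 51.5% of fitted differences were below 0 and 48.5% above. All differences below are therefore measured values that did not pass that test.

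Promoter sequences of Hamp, Hamp2 and the classic retinoic acid targets Cyp26a1 and Rarb are shown first. Probe sequences, which bear on what the arrays could detect, follow them. The promoters are the 150 bases before the start of each gene in RefSeq's mouse build GRCm38.p6. Capitals mark matches, on either strand, to 3 motifs: GGCGCC, the core of a BMP response element, TTCNNNGAA, a site of STAT factors, and GTTCA followed after 5 bases by AGTTCA, the direct repeat that RAR-RXR pairs bind. The Hamp promoter (chr7:30944030-30944179, minus strand) held GGCGCC 109 bases before the start and TTCNNNGAA 97 bases before it. The Hamp2 promoter (chr7:30924182-30924331, minus strand) held TTCNNNGAA 94 bases before the start. The Cyp26a1 promoter (chr19:37697658-37697807, plus strand) and the Rarb promoter (chr14:16575477-16575626, minus strand) held the direct repeat 32 and 53 bases before the start, and in Rarb a TTCNNNGAA match overlaps it.
Hamp promoter: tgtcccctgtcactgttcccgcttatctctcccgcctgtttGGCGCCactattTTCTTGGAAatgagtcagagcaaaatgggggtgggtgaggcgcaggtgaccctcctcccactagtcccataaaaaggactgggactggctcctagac
Hamp2 promoter: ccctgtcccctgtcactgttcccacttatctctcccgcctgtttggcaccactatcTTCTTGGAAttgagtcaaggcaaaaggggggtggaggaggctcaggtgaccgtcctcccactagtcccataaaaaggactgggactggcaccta
Cyp26a1 promoter: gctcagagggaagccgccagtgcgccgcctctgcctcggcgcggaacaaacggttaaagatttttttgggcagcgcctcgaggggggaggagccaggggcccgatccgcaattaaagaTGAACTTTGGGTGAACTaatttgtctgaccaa
Rarb promoter: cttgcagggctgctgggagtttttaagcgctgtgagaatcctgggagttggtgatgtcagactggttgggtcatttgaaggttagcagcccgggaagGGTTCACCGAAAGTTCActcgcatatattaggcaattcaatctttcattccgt
Of 32851 promoters in the RefSeq table, 7.01% held GGCGCC in this window, 4.09% held TTCNNNGAA and 0.0122%, or 4 promoters, held the repeat. A match describes the letters and does not show that a factor binds there.

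The array probes for the paralogs Hamp and Hamp2 are shown because they share stretches of sequence. Both lie on the minus strand of chr7 in build mm9, per the file headers, at 31727490-31727549 for Hamp and 31707520-31707579 for Hamp2. Aligned with 1 probe shifted by 1 base, they are alike at 42 of 59 bases (71.2%), and capitals mark the bases that differ among those compared. The brighter Ren1 probe (chr1:135256659-135256718, plus strand, mm9) is shown because it had a low deficient signal, which a dimmer Ren1 probe did not share.
Hamp probe: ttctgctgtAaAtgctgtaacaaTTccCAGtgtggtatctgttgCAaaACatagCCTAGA
Hamp2 probe: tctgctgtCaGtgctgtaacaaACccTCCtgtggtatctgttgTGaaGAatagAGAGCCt
Ren1 probe: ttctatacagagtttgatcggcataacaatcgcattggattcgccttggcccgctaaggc

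The arrays differed in brightness and in shape. The 75th percentile of the signal ran from 157.9 to 375.2 on the control arrays and from 161 to 387.7 on the deficient arrays, and the share of probes well above the background ran from 47% to 75.95% and from 59.82% to 82.24%. Levels below are log2 signals relative to that percentile, and a difference is deficient minus control in log2 units. The deficient array of slide 3, from 1 mouse, had 544 outlier spots against 50 to 81 on the other 5 arrays, and its median correlation with arrays of the same age was 0.753. On slide 3 dim genes lay higher and bright genes lower: the median difference was 1.88 in the quintile of genes with the lowest control level (median level -3.92) and -1.94 in the brightest quintile (median level 3.39). Slide 2 had a smaller trend of the same kind, from 0.69 to -0.02, and slide 1 ran from 0.29 to 0.14, as the plot of the diet difference by gene level shows. For this reason each result is given slide by slide. Gene by gene the slides agreed weakly or not at all. Over genes the differences correlated at 0.228 for slides 1 and 2, -0.0705 for slides 1 and 3 and 0.392 for slides 2 and 3. After cyclic loess scaling the values were 0.203, -0.153 and 0.192. Where groups are said not to overlap, this describes the values, and the share of all genes without overlap was not counted. A gene measured on every array whose groups do not overlap also lies lower, or higher, on all 3 slides. Over all genes 13.6% lay lower on all 3 slides and 18.7% lay higher on all 3. Cyclic loess scaling, which removes the trend with gene level, put these shares at 18.1% and 13.8%. In the 2 brightest quintiles before that scaling 26.4% and 24.5% lay lower on all 3, and in the 2 dimmest 45.5% and 29.4% lay higher. The median gene had an SD of 0.52 over the 3 control arrays, which is technical because they share a pool, and of 0.76 over the 3 deficient samples. Limma's p-values rest on the spread within all groups of the series, and an exact permutation test of 1 pool against 3 samples could not go below 0.25.

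**Figure D1:**
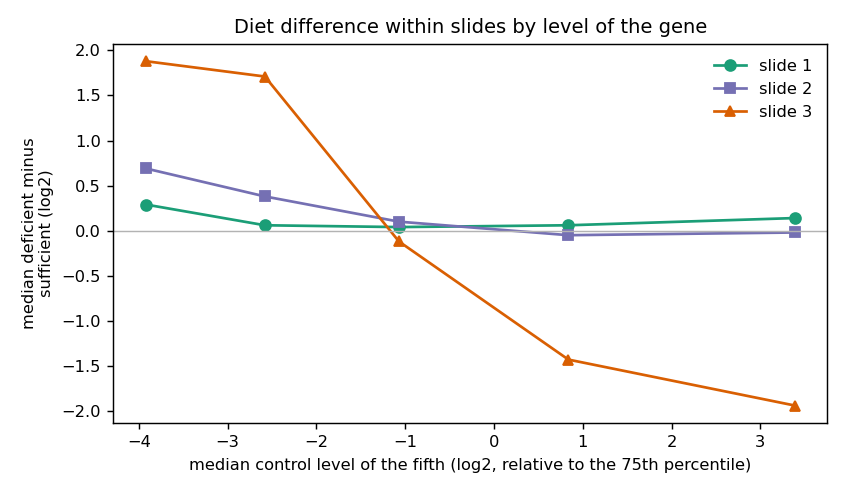
Median diet difference (deficient minus sufficient, log2) within each slide, for quintiles of genes ordered by their control level (log2 relative to the 75th percentile of the array). Slide 3 runs from 1.88 in the dimmest quintile to -1.94 in the brightest, slide 2 from 0.69 to -0.02 and slide 1 from 0.29 to 0.14.

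Hamp, which encodes hepcidin, had control levels of 3.32, 3.73 and 5.23 and deficient levels of -4.10, -4.98 and -5.55 on slides 1 to 3. The groups were far apart, and Hamp was well above background on all 3 control arrays and on no deficient array. The differences within slides were -7.43, -8.71 and -10.78. The fitted difference was -8.97 ± 1.93 (SE; limma, adjusted p = 0.887). Measured against the lowest signal well above background, Hamp was at least 200-fold lower in the deficient group. Hamp2, its neighbouring paralog, had control levels of 5.59, 5.91 and 6.95 and deficient levels of 1.32, 0.22 and -1.35. It stayed above background on all arrays, the groups did not overlap, and the difference was -6.08 ± 1.69 (SE; limma, adjusted p = 0.887). How much of the signal of one paralog the probe of the other takes up was not tested.

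**Figure D2:**
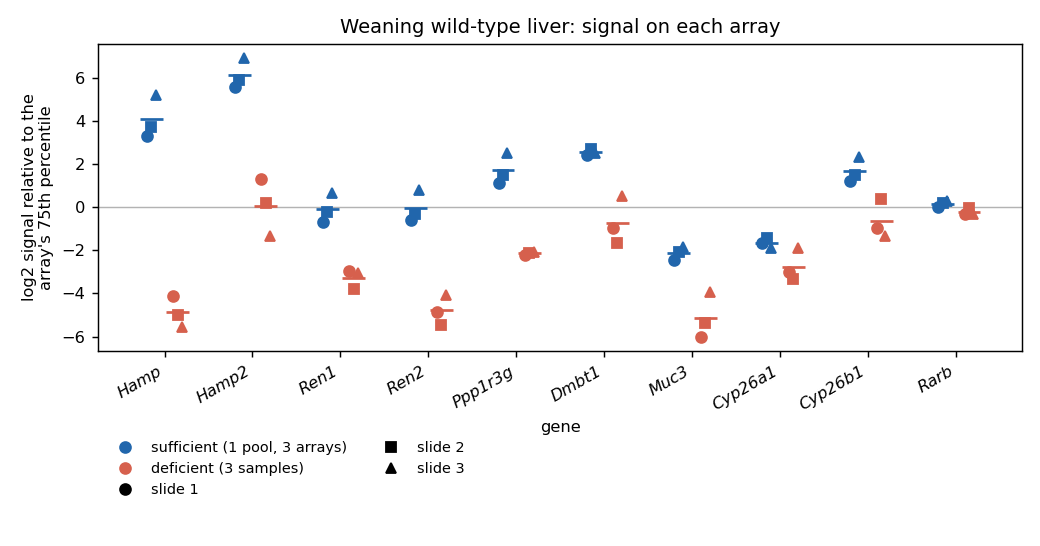
Level of 10 genes (log2 signal relative to the 75th percentile of the array) on each array of weaning wild-type liver, with circles, squares and triangles for slides 1, 2 and 3 and a bar at the group mean. Blue points are 3 arrays of 1 sufficient pool and red points are 3 deficient samples. For each of the 10 genes every red point lies below every blue point, by the least in Cyp26a1 (-1.90 against -1.87) and Rarb (-0.04 against 0.01). The share of all genes that separate in this way was not counted. A gene measured on every array that does so also lies lower on all 3 slides. That wider group held 13.6% of all genes, and 26.4% and 24.5% of those in the 2 brightest quintiles.

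The genes that sense iron and inflammation upstream of hepcidin did not show a difference of that size. BMP ligands, receptors and SMADs, which pass the iron signal to the Hamp promoter, had median differences of 0.13, -0.03 and -1.53 on the 3 slides over 16 genes. The slide 3 value is near that of bright genes in general. Of the 16 genes 2 lay lower on all 3 slides, a share near the 13.6% of all genes. The co-receptor gene Hjv differed by 0.24, -0.01 and 0.58 within slides, the sensor Tfr2 by 0.27, 0.15 and -1.98, and the protease Tmprss6 by 0.23, 0 and -1.85. Bmp6, the main iron-induced ligand, was not well above background on any of the 6 arrays, and Bmp2 differed by 0.46 ± 0.60 (SE).

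Targets of BMP signalling other than hepcidin lay somewhat lower. Of 8 such genes, 5 lay lower on all 3 slides (Id1, Id2, Id3, Smad6 and Smad7) and 1 higher (Id4), beside 13.6% and 18.7% of all genes. The median differences were -0.53, -0.20 and -1.17. After cyclic loess 4 lay lower and 1 higher, beside 18.1% and 13.8% of all genes, with medians of -0.64, -0.23 and -0.02. Smad7, an inhibitor of SMAD signalling, had control levels of -2.49, -2.62 and -1.81 and deficient levels of -3.27, -2.78 and -3.64. On the slide 3 deficient array Smad7 lay near the lowest level well above background there, -3.63. Its groups did not overlap, and the difference was -0.92 ± 0.51 (SE; limma, adjusted p = 0.887). Smad6, a second inhibitor, differed by -0.75, -0.18 and -1.23 within slides, and Id1, a helix-loop-helix inhibitor induced by BMP, by -0.45, -0.42 and -2.57. All are small beside the difference of Hamp. The interleukin 6 branch gave no common direction: Stat3 differed by 0.41, 0.61 and -1.87, Socs3 by 0.42, 0.24 and -1.50, and Il6ra by 0.52, 0.01 and 0.85.

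Genes that carry and store iron lay close to their controls on slides 1 and 2. Over 20 such genes the median differences were 0.20, 0.01 and -1.38, with 4 lower and 1 higher on all 3 slides. The exporter ferroportin (Slc40a1) differed by 0.44, 0.29 and -2.05, the transferrin receptor Tfrc by 0.72, 0.18 and -0.72, and transferrin (Trf) by 0.16, -0.02 and -1.15. Ftl1, the ferritin light chain, lay at -0.37, -0.80 and -2.37, and Fth1, the heavy chain, at 0.33, 0.13 and -2.19. Over the whole list of 54 hepcidin and iron genes, 15 lay lower and 5 higher on all 3 slides, beside 13.6% and 18.7% of all genes. In the 2 brightest quintiles of all genes 26.4% and 24.5% lay lower.

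Renin was the second family with low signal. The Ren1 probe, for the protease that cuts angiotensinogen, had control levels of -0.69, -0.19 and 0.69 and deficient levels of -2.96, -3.80 and -3.03. Its slide 2 deficient level lay below the lowest level well above background there, -3.14. The probe named for Ren2 had control levels of -0.60, -0.31 and 0.79 and deficient levels of -4.84, -5.45 and -4.07. Neither pair of groups overlapped. The differences were -3.20 ± 0.80 for Ren1 and -4.75 ± 0.80 for Ren2 (SE; limma, adjusted p = 0.887 and 0.427), and Ren2, below background on all deficient arrays, was at least 11.4-fold lower. C57BL/6 mice carry Ren1 and lack the Ren2 gene, so the Ren2 probe can be read only as renin signal of uncertain origin. A second Ren1 probe did not share the direction, at 0.25, 0.62 and 3.04 within slides and with dimmer control levels of -1.27, -2.48 and -2.56. The rest of the pathway did not follow: angiotensinogen (Agt), made by hepatocytes, differed by 0.66, 0.50 and -1.50, and Ace by -0.13, 0.09 and 2.12. Of 9 measured genes of the list, 4 lay lower on all 3 slides, beside 13.6% of all genes. They were Ren1 and Ren2 by the probes used, the renin receptor gene Atp6ap2 (-0.33, -0.14 and -1.72) and the aminopeptidase gene Enpep (-0.55, -0.11 and -0.99).

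Ppp1r3g targets protein phosphatase to glycogen and raises glycogen synthesis after a meal. Its control levels were 1.15, 1.52 and 2.54 and its deficient levels -2.22, -2.13 and -2.05. The deficient samples lay close together and far below the control, at a difference of -3.87 ± 0.91 (SE; limma, adjusted p = 0.887). The other glycogen genes did not lie as low. Gbe1, the branching enzyme, differed by -0.90, -0.89 and -2.50, and Gys2, the liver glycogen synthase, by -0.31, -0.63 and -2.28. The related targeting subunits Ppp1r3b (0.64, -0.22 and -1.51) and Ppp1r3c (0.28, 1.08 and -2.46) changed sign between slides. G6pc, which releases free glucose, lay at -1.02, -1.01 and -2.86. Over 44 genes of carbohydrate metabolism 18 lay lower and 1 higher on all 3 slides, beside 13.6% and 18.7% of all genes and 24.5% to 26.4% lower in the 2 brightest quintiles.

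Other genes with low deficient signal had varied roles. Dmbt1, a mucosal defence glycoprotein, had control levels of 2.44, 2.70 and 2.53 and deficient levels of -0.97, -1.67 and 0.51, a difference of -3.27 ± 1.16 (SE; limma, adjusted p = 0.887). The mucin gene Muc3 had control levels of -2.45, -2.05 and -1.82 and was below background on all 3 deficient arrays, at least 2.71-fold lower. Ctse, which encodes the protease cathepsin E, lay at -0.36, -0.02 and 0.93 in the control and at -2.21, -3.07 and -2.11 in the deficient samples. None of these genes had overlapping groups. Smaller differences of the same sign were measured for Cyp2c65 (-2.37 ± 0.78, at least 2.17-fold lower), the membrane protein gene Pdzk1ip1 (-1.71 ± 0.63), Ly6d (-1.32 ± 0.50) and the mitochondrial folate enzyme gene Mthfd2 (-2.05 ± 0.78, SE). The keratin gene Krt19, a marker of bile duct cells, lay at -1.63 and -1.59 on slides 1 and 2 and was not measured on the deficient array of slide 3. The 17 measured bile duct markers as a list were nearly level on slides 1 and 2, with medians of -0.25 and -0.04. Beside 13.6% of all genes, 3 of the 17 markers lay lower on all 3 slides. Their summed signal relative to the 75th percentile was 186, 238 and 317 on the control arrays and 188, 215 and 90 on the deficient ones, and its part in the low Krt19 was not tested. In bulk RNA fewer cells of a type and less RNA per cell cannot be told apart.

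Retinoic acid turns on its own degradation, and both measured CYP26 genes had low signal in the deficient livers. Cyp26b1 had control levels of 1.24, 1.53 and 2.34 and deficient levels of -0.94, 0.37 and -1.31. The groups did not overlap, and the difference was -2.33 ± 1.05 (SE; limma, adjusted p = 0.887). Cyp26a1, the main hepatic enzyme of retinoic acid breakdown, had control levels of -1.65, -1.41 and -1.87 and deficient levels of -3.02, -3.34 and -1.90. It was above background on 2 of 3 deficient arrays. The slide 2 deficient level lay below the lowest level well above background there, -3.14. The groups only just did not overlap: slides 1 and 2 differed by -1.37 and -1.93 and slide 3 by -0.02, at an overall difference of -1.11 ± 0.82 (SE; limma, adjusted p = 0.887). Cyclic loess put Cyp26a1 at -1.63, -2.42 and -1.78 on the 3 slides. Rarb, the receptor gene that carries the repeat shown above, lay only slightly lower, at -0.31, -0.26 and -0.64. A dimmer second probe of Rarb gave -0.43, 0.30 and 3.53.

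Other genes that retinoic acid is known to induce lay within a small range. Lrat, which makes retinyl ester for storage, differed by -0.17, -0.44 and -0.93, and Rarres1, named for its response to retinoids, by -0.69, -0.53 and -1.21. The short-chain reductase gene Dhrs3 differed by -0.21, 0.05 and -1.97 and the transglutaminase gene Tgm2 by -0.26, -0.29 and -2.29. Stra6, the cell-surface receptor for the retinol carrier, lay slightly higher on each slide, by 0.20, 0.90 and 0.77. Of 24 measured retinoic acid targets, 7 lay lower and 4 higher on all 3 slides, beside 13.6% and 18.7% of all genes.

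Genes that carry retinoids lay slightly higher on slides 1 and 2, and those of storage were level there. Rbp4, the plasma retinol carrier, had control levels of 9.53, 9.87 and 10.46 and deficient levels of 10.10, 10.43 and 8.75. Its groups overlapped, with a difference of -0.19 ± 0.97 (SE; limma, adjusted p = 0.936). Its partner transthyretin (Ttr) differed by -0.11, 0.10 and -1.86. The 8 transport genes had medians of 0.46, 0.38 and -1.66. On all 3 slides 3 lay higher and none lower, beside 18.7% and 13.6% of all genes. After cyclic loess the medians were 0.19, 0.30 and 0.49, with 6 higher and none lower, beside 13.8% and 18.1% of all genes. Crabp1, a retinoic acid carrier rarely found in liver, lay higher by 1.07, 1.32 and 3.47, from a control level below background on 2 of 3 arrays. The 9 genes of ester storage and hydrolysis had medians of 0.03, -0.12 and -0.93.

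Among the dehydrogenases and reductases of the retinoid list named here, Rdh11 and Aldh1a7 lay lowest. Rdh11, a retinal reductase, had control levels of 3.08, 3.43 and 3.89 and deficient levels of 1.33, 2.72 and 1.06, a difference of -1.76 ± 1.25 (SE; limma, adjusted p = 0.887). Aldh1a7, a close relative of the retinal dehydrogenase Aldh1a1, differed by -0.93, -0.72 and -3.18. Aldh1a1 itself lay at -0.14, 0.33 and -2.37, Rdh10 at -0.22, -0.30 and -1.41 and Adh1 at 0.06, 0.16 and -1.81. Receptors and cofactors were nearly level on slides 1 and 2: Rxra differed by 0.27 and 0.08 there, Ncor1 by 0.14 and -0.07, and Rara, below background on 2 control arrays, lay higher by 0.66, 2.34 and 1.45. Cyp1b1 itself, near background in this tissue, differed by -0.62, -1.57 and 1.44. Over 56 measured retinoid genes, 11 lay lower and 8 higher on all 3 slides, beside 13.6% and 18.7% of all genes.

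Enzymes of fatty acid synthesis formed the group with the steadiest differences. Of 21 measured genes, 19 lay lower on all 3 slides and 1 lay higher (Elovl3), beside 13.6% and 18.7% of all genes. The medians were -1.31, -1.24 and -2.25. After cyclic loess 17 of the 21 lay lower on all 3 slides, beside 18.1% of all genes, with medians of -1.40, -1.21 and -0.72. Elovl6, which elongates palmitate, had control levels of 4.43, 4.80 and 5.42 and deficient levels of 1.55, 2.09 and 1.93. The groups were clearly separate, at -3.03 ± 1.32 (SE; limma, adjusted p = 0.887). Scd1, the stearoyl-CoA desaturase, had control levels of 5.91, 6.30 and 6.16 and deficient levels of 2.94, 4.46 and 2.90, a difference of -2.69 ± 1.88 (SE). Fasn, the fatty acid synthase, had control levels of 8.47, 8.99 and 9.53 and deficient levels of 6.72, 7.44 and 6.46, a difference of -2.12 ± 1.63 (SE). Both deficient groups lay wholly below their controls, and a second Fasn probe gave nearly the same values, at -2.19, -1.87 and -2.30 within slides.

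Enzymes that supply this pathway lay lower too. Acly, which makes cytosolic acetyl-CoA from citrate, differed by -1.83, -1.58 and -2.51, though a second, dim Acly probe gave 2.88 on slide 3. Acss2, which makes it from acetate, differed by -2.19, -1.67 and -3.08. The carboxylase genes Acaca and Acacb lay at -1.37, -1.24 and -2.18 and at -2.42, -1.71 and -2.20. Sources of NADPH followed: Me1, the malic enzyme, had control levels of 2.73, 3.11 and 3.90 and deficient levels of 0.26, 1.39 and 0.56. Pgd of the pentose phosphate pathway differed by -1.43, -1.39 and -2.60, and G6pdx by -0.55, -0.82 and -2.04. Pklr, the liver pyruvate kinase that carbohydrate induces, differed by -1.70, -1.51 and -1.27. At the other end, Elovl1 (0.08, -0.06 and -1.89) and Fads2 (-0.01, -0.09 and -1.61) were level on slides 1 and 2, and Elovl3 lay higher by 0.49, 1.89 and 2.63 from a control level near background.

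**Figure D3:**
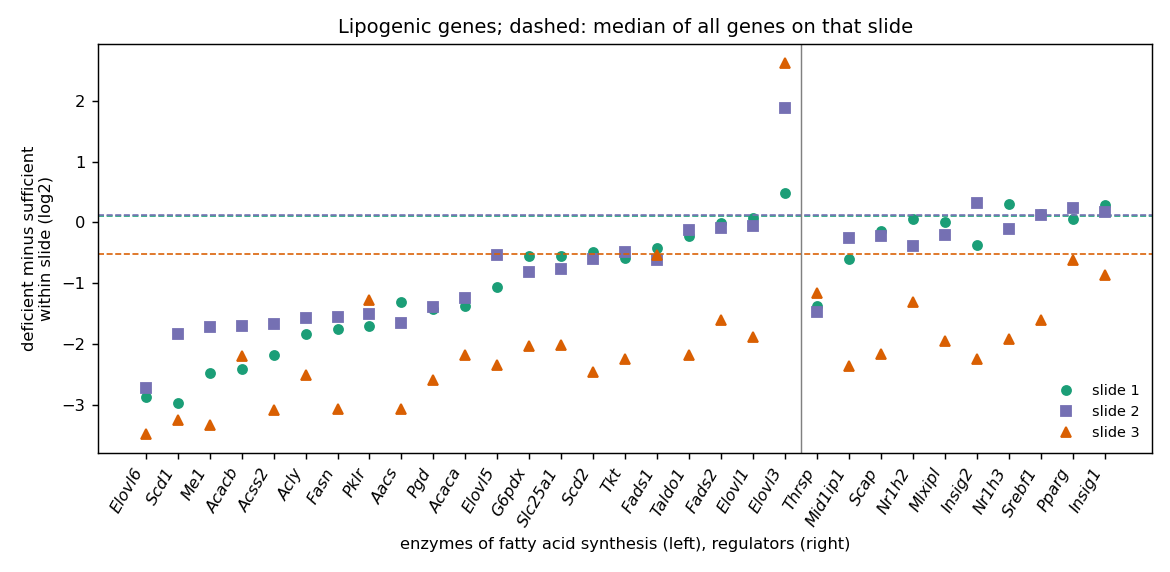
Diet difference (deficient minus sufficient, log2) within each of 3 slides for enzymes of fatty acid synthesis, left of the grey line, and regulators of lipogenesis, right of it; dashed lines are the median of all genes on each slide. Most enzymes lie below the dashed line of their slide on slides 1, 2 and 3, while most regulators lie closer to it on slides 1 and 2, Thrsp (-1.37 and -1.48) least so.

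The regulators of these enzymes did not lie as low. Srebf1, the transcription factor gene that drives lipogenic enzymes under insulin, differed by 0.14, 0.13 and -1.61, and Mlxipl, which encodes the carbohydrate response factor ChREBP, by 0.01, -0.21 and -1.95. Over 10 regulators the medians were 0.03, -0.16 and -1.76 and 3 lay lower on all 3 slides, beside 13.6% of all genes. The exception in size was Thrsp, a lipogenic protein that responds to thyroid hormone and carbohydrate, at -1.37, -1.48 and -1.16. Genes of triglyceride assembly and storage were mixed, with medians of -0.12, -0.03 and -1.69. Of 20 such genes 7 lay lower on all 3 slides, beside 13.6% of all genes and 24.5% to 26.4% in the 2 brightest quintiles. Lpin1, a phosphatidate phosphatase, differed by -1.22, -1.68 and -3.20, Gpam, the first enzyme of glycerolipid synthesis, by -0.76, -1.45 and -1.66, and the lipid droplet gene Pnpla5 by -1.47, -1.54 and -0.86. Dgat2, the last step, differed by 0.13, 0.07 and -2.05.

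Genes of the cell cycle lay lower as a list. Of 50 measured, 33 lay lower on all 3 slides and 1 higher (Ccne2), with medians of -0.65, -0.61 and -1.84, beside 13.6% and 18.7% of all genes. After cyclic loess 27 lay lower and none higher, beside 18.1% and 13.8%, with medians of -0.75, -0.62 and -0.17. Their summed signal was 95.8, 119 and 162 in the control and 64.2, 81.6 and 47.6 in the deficient samples, so the groups did not overlap. Plk1, a kinase of mitosis, had control levels of 0.47, 0.94 and 1.77 and deficient levels of -0.90, -0.87 and -1.47. Ccnb1, the mitotic cyclin, had control levels of -1.57, -1.32 and -1.02 and deficient levels of -2.59, -3.10 and -3.26. Neither pair of groups overlapped, and the differences were -2.14 ± 1.11 and -1.68 ± 0.80 (SE; limma, adjusted p = 0.887 for both). Ect2, needed for cell division, differed by -0.72, -3.45 and -3.08, Mcm10, of replication origins, by -1.33, -0.98 and -2.16, and Mki67, the proliferation marker, by -0.79, -0.84 and -2.56. Replication licensing genes Mcm2 to Mcm7 all lay lower on every slide, from -0.32 to -2.13. Top2a did not follow, at 0.08, -0.33 and 1.11.

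Some genes that respond to growth hormone and to the daily rhythm gave large values, within lists whose medians were between -0.08 and 0.29 on slides 1 and 2 and between -1.60 and -1.18 on slide 3. The major urinary protein genes, male-biased and driven by growth hormone pulses, lay lower: Mup3 had control levels of 5.47, 5.87 and 6.63 and deficient levels of 1.95, 3.92 and 3.44, a difference of -2.89 ± 1.36 (SE; limma, adjusted p = 0.887). Mup1 (-2.08 ± 1.14), Mup4 (-2.61 ± 1.06) and Mup5 (-2.61 ± 1.04, SE) did likewise, and since Mup genes are near-identical copies their probes may share signal. Hsd3b5, another male-biased gene, differed by -1.57, -1.28 and -0.91, whereas Igf1 was level on slides 1 and 2, at -0.06 and -0.04. Of 32 measured sex-biased genes 8 lay lower and 2 higher on all 3 slides, beside 13.6% and 18.7% of all genes. Gadd45g, a stress gene, had control levels of 5.08, 5.41 and 5.86 and deficient levels of 2.45, 4.02 and 0.55. In the clock list the repressor Nr1d1 differed by -1.30, -2.24 and -1.83 and the output factor Dbp by -0.75, -1.65 and -1.91. Cry1, which Nr1d1 represses, lay higher by 1.00, 1.13 and 2.74. No label states the hour of collection, and its part in these values was not tested.

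Markers of the tissue fitted its label. All 28 measured hepatocyte markers were above background, and Alb stood at 10.36, 10.79 and 10.96 in the control and at 10.84, 11.34 and 9.35 in the deficient samples. Their medians within slides were 0.33, 0.06 and -1.96, and their summed signal was 6270, 8160 and 10200 in the control against 8240, 10300 and 2970 in the deficient samples. Stellate cell markers, 21 genes, had medians of -0.04, 0 and -1.46, and Kupffer cell markers, 23 genes, of 0.35, 0.06 and -1.48.

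**Figure D4:**
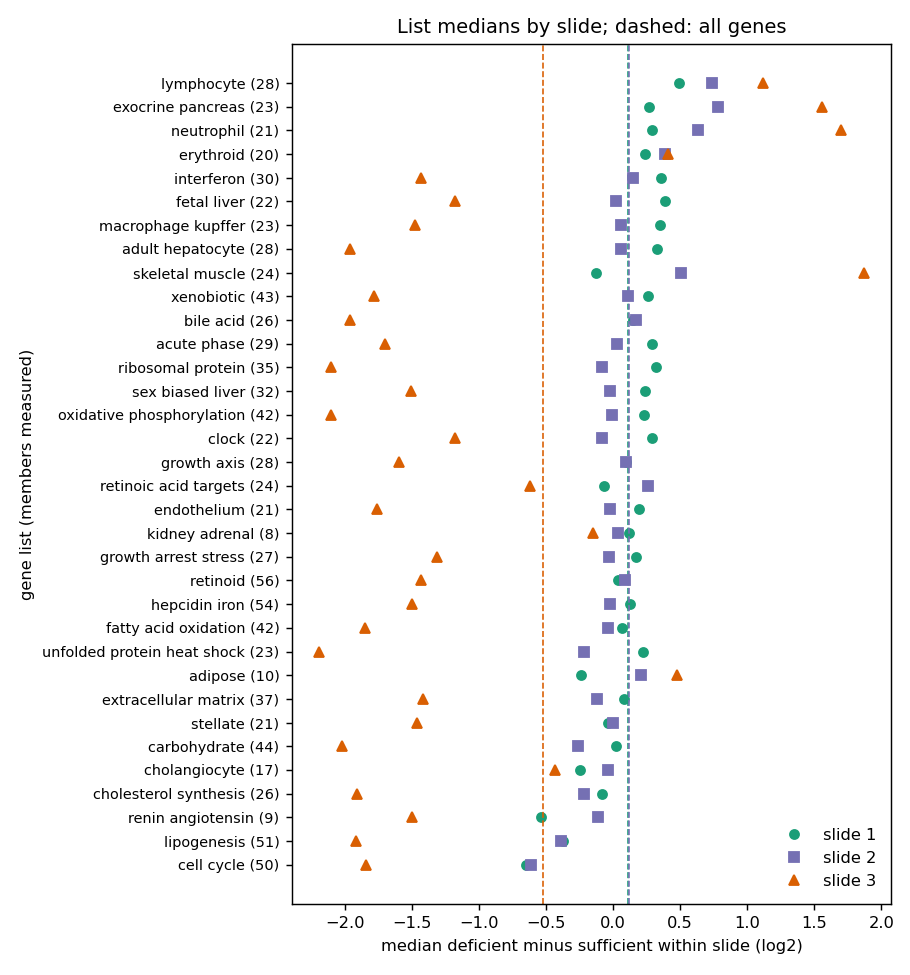
Median diet difference (deficient minus sufficient, log2) of each gene list within slides 1, 2 and 3, with the number of measured members in brackets and dashed lines at the median of all genes on each slide. The cell cycle list lies lowest on slides 1 and 2, at -0.65 and -0.61, and the lymphocyte, exocrine pancreas, neutrophil and erythroid lists lie above 0 on all 3.

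Markers of lymphocytes and neutrophils, most of them dim, are read against the 45.5% and 29.4% of all genes in the 2 dimmest quintiles that lay higher on all 3 slides. Of 28 lymphocyte markers 9 lay higher and none lower on all 3 slides, a share near that of dim genes, with medians of 0.49, 0.74 and 1.12. After cyclic loess 6 lay higher and none lower. Their summed signal was 12.8, 11 and 16.9 in the control and 17.5, 18.7 and 19 in the deficient samples, so the groups did not overlap. Gzma, a granzyme of cytotoxic cells, had control levels of -3.07, -2.93 and -2.76 and deficient levels of -1.13, -1.0 and -2.41, a difference of 1.41 ± 0.61 (SE; limma, adjusted p = 0.887). The T cell receptor chain gene Cd3d and the antibody gene Ighm lay higher by 1.10 and 0.72 on slide 1 and by 0.87 and 0.75 on slide 2, and not on slide 3, at -0.05 and -1.32. Of 21 neutrophil markers 10 lay higher and 1 lower on all 3 slides, and their summed signal was 9.98, 8.20 and 10.6 in the control and 15.1, 14.1 and 13.7 in the deficient samples. S100a9, the calgranulin gene with the most signal among them, lay at 1.93, 2.15 and 2.72 in the control and at 2.97, 3.03 and 1.33 in the deficient samples. After cyclic loess 10 of the neutrophil markers lay higher and 2 lower, beside 13.8% and 18.1% of all genes.

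Genes of pancreas and muscle were present at low levels in all 6 arrays. Of 23 measured pancreatic genes 9 lay higher and 1 lower on all 3 slides, a share near that of dim genes in general. The summed signal overlapped between groups, from 15.8 to 20.9 and from 16.8 to 20.2. That overlap rests on Spink1, which is also on the fetal liver list. Its control levels were 2.62, 3.03 and 3.60 and its deficient levels 2.83, 2.60 and 1.14. Without Spink1 the deficient sums lie above the control sums. Pnliprp1, a pancreatic lipase relative, lay higher by 1.41, 2.01 and 0.72, and the chymotrypsinogen gene Ctrb1 by 0.93, 2.08 and 1.11, while Reg1 lay lower by -1.63, -2.04 and -1.18. Of 24 muscle genes 8 lay higher on all 3 slides, again near the share of dim genes, with medians of -0.13, 0.51 and 1.87. After cyclic loess 3 lay higher and 2 lower, beside 13.8% and 18.1% of all genes. The summed signal of the muscle genes was 3.38 to 10 in the control and 6.20 to 17.7 in the deficient samples. Whether traces of such tissue entered the samples unequally was not tested.

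Among genes higher on all 3 slides the 12 with the smallest p began near background. Gm14325, an uncharacterised gene model, had control levels of -3.10, -4.72 and -4.32 and deficient levels of -1.67, -2.25 and -1.12, a difference of 2.37 ± 0.69 (SE; limma, adjusted p = 0.887). The potassium channel gene Kcnq5 and the interleukin 7 receptor gene Il7r were below background on all control arrays, and lay at least 1.44-fold and 1.25-fold higher. The set holds 5 odorant receptor genes, with Olfr148 and Olfr330 both at 2.17, together with the pheromone receptor gene Vmn1r89. None of these 12 had a control level above -2.24 on any array.

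Alternatives that used the arrays differently called a few genes. With the 3 control arrays counted as replicates 4 genes passed (0.0195% of 20533): Ren2, Hamp and Ppp1r3g, lower, and AK048933, higher. With quality weights for arrays 6 passed (0.0292%), Hamp, Muc3 and Ren2 lower and Gm14325, AK048933 and Rspry1 higher. Those weights gave 5.2 to the deficient sample of slide 1, 0.703 to that of slide 2 and 0.0833 to that of slide 3, so they rest mainly on the first. Rspry1 rests on 1 control array, with control levels of -6.02, 0.15 and 0.10. With the replicate number as a block over the 6 arrays, which also counts the 3 hybridisations of the control pool as replicates, 1 gene passed (0.00487%), Hamp, at an adjusted p of 0.00763 in limma. With slides as a block over slides 1 to 3, counted the same way, 0 genes passed, at a smallest adjusted p of 0.75 and 631 genes with an unadjusted p under 0.05.

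The diet differences of the other weaning lines were set beside these, each against its own control. One sufficient array of the R-Cyp1b1-null line, on slide 3, stood apart, with a median correlation of 0.465 with arrays of its age and a 75th percentile of 1963, so values of that line are given with and without it. In R-Cyp1b1-null mice Hamp differed by 1.32 ± 1.37, and by -0.16 ± 1.28 without that array (SE). In Cyp1b1-null mice, all on 1 slide of their own, it differed by 4.05 ± 1.68 (SE). In wild type, where no deficient array was above background, the difference has only a bound, and no test of the difference between lines passed (limma, adjusted p = 0.34 and 0.988, and 0.621 for R-Cyp1b1-null without the array). The sufficient controls of those lines lay far below the wild-type pool in Hamp, between -2.80 and 1.69 and between -4.65 and -3.89.

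Elovl6 differed by 0.55 ± 0.93 in R-Cyp1b1-null mice, by -1.03 ± 0.52 without the array that stood apart, and by 1.62 ± 1.14 in Cyp1b1-null mice (SE), against -3.03 in wild type. Scd1 likewise turned from 2.03 ± 1.33 to -0.39 ± 0.59 in R-Cyp1b1-null mice without it. Mup3 differed by 1.94 ± 0.96, by 0.50 ± 0.70 without it, and by 1.87 ± 1.18 in Cyp1b1-null mice (SE). The direction of Hamp, Hamp2, Elovl6 and Scd1 in R-Cyp1b1-null mice thus rests on 1 array. Mean control levels in wild type, R-Cyp1b1-null and Cyp1b1-null mice, all arrays included, were 4.88, 3.17 and 0.01 for Elovl6. They were 6.12, 4.94 and 2.61 for Scd1 and 5.99, 4.07 and 0.88 for Mup3. The part of these control levels in the differences between lines was not tested. Cyp26a1 was below background on all deficient arrays of both lines, at least 6.13-fold lower in R-Cyp1b1-null and 3.30-fold lower in Cyp1b1-null mice. Its difference in R-Cyp1b1-null mice passed the test with the array (-4.19 ± 0.58, limma, adjusted p = 0.0421) and without it (-4.82 ± 0.52, adjusted p = 0.00168). The tests of the difference from wild type did not pass (limma, adjusted p = 0.34 and 0.988, and 0.621 without the array).

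**Figure D5:**
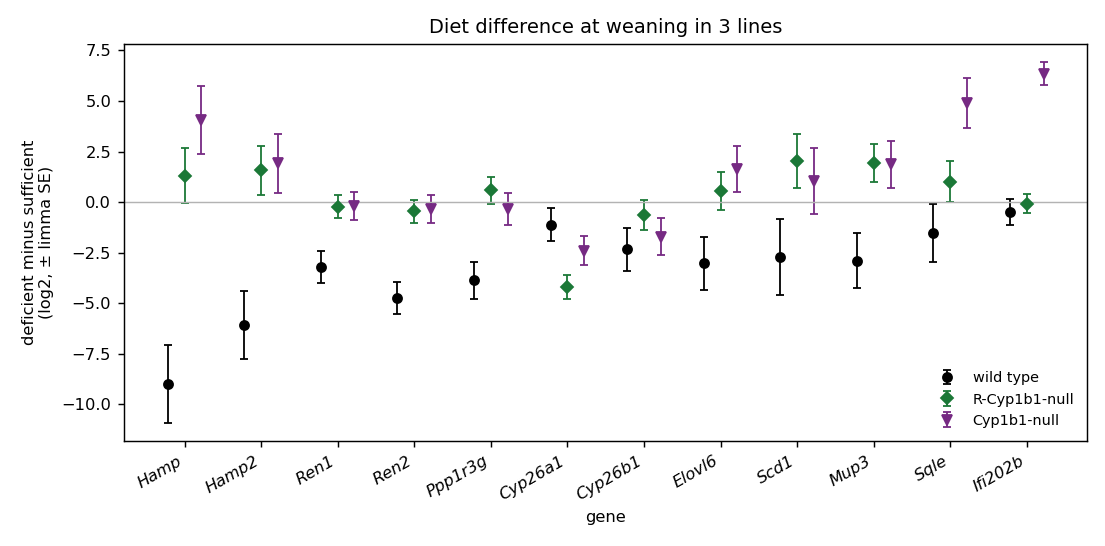
Diet difference at weaning (deficient minus sufficient, log2) of 12 genes in wild-type, R-Cyp1b1-null and Cyp1b1-null liver, with limma standard errors as bars, all arrays included and values below background plotted as measured. Hamp, Hamp2, Elovl6 and Scd1 lie below 0 in wild type and above it in both other lines, but without 1 sufficient R-Cyp1b1-null array they lie at -0.16, -0.08, -1.03 and -0.39 in that line.

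Over all genes, 0 of 20533 (0%) differed between wild type and R-Cyp1b1-null in their diet difference, and 1 (0.00487%) between wild type and Cyp1b1-null, the interferon-inducible Ifi202b. The unadjusted counts under 0.05 were 1915 and 130, and quality weights for arrays called 1 gene (Muc3) and 25 genes. Against newborn wild-type livers 0 genes (0%) passed and 86 had an unadjusted p under 0.05; with the control arrays counted as replicates 1 gene, Ren2, passed. At birth Hamp differed by -1.48 ± 1.68, from a control level of 6.86 to 6.97, and Elovl6 by -0.17 ± 1.14 (SE). Line and slide cannot be told apart for Cyp1b1-null mice, nor age and slide for newborns.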

How the data were processed

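Liver RNA was labelled in 1 colour (Cy3) and hybridised to Agilent arrays, per the labels. The authors extracted each scan with Agilent Feature Extraction, and per the file headers the deposited values are a background-subtracted spot intensity, a mean intensity and a local background intensity. Per the submitters' processing notes limma was also used, with no version given. Here 2048 outlier spots and all control spots were dropped, spots of a probe averaged, and the 75th percentile of an array subtracted on the log2 scale. Probes entered where every array of 1 or more groups had them well above background, and the brightest probe stood for each of 20533 genes, named through RefSeq's GRCm38.p6 table. The fit in limma 3.58.1 (R 4.3.3) covered all 10 groups, with the 3 arrays of the control pool averaged into 1 sample and 12 residual degrees of freedom, and tests were adjusted by Benjamini-Hochberg over all genes. The method was tested on simulated data. Where no array of a group had a gene above background, its fold is a bound, "at least N-fold", against the lowest signal well above background. P-values measure the spread between samples of all groups, which may be technical.

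The members and gene lists were chosen with earlier results of these data known. Genes named by rule were all members of the retinoid, retinoic acid target, hepcidin and renin lists, the 12 lower and 12 higher with the smallest p among genes of 1 sign on all 3 slides, up to 4 members of each other list, up to 4 per test of a difference between lines or ages, genes called under an alternative, and Elovl6, Scd1, Fasn, Srebf1, Igf2, Afp, Alb and Cyp1b1. Other list members, and Mup4, Mup5, Leap2, Egfr, Mfsd2a and Cdcp1, were named after their values were seen. Summed signals add linear intensity relative to the 75th percentile. A few list members are not reported here.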

Additional observations from a re-analysis of the deposited data

Results flagged for a closer look

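Ifi202b, an interferon-inducible gene of innate DNA sensing, differed in its diet difference between wild type and Cyp1b1-null by -6.86 (limma, adjusted p = 0.0129). In wild type it lay at -2.08, -2.40 and -2.20 in the control and at -2.98, -3.51 and -1.69 in the deficient samples, a difference of -0.50 ± 0.65 (SE). In Cyp1b1-null mice the fitted diet difference was 6.36 ± 0.57, but both control arrays, at -7.57 and -7.25, were not above background, so it was at least 22.6-fold higher with the deficient diet and the fitted values are not bounds. In R-Cyp1b1-null mice it was -0.07 ± 0.46. It was singled out because the test of the difference between the lines passed. The call was lost under quantile scaling, normexp, a fit of weaning samples alone and without the deficient sample of slide 1, and line and slide cannot be told apart.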

How the results depend on the processing

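Calls of the diet comparison, 0 genes as reported, stayed at 0 without each array in turn (0 to 0), under quantile, normexp and cyclic loess scaling, without a filter, with the mean of probes, with the authors' series table, with weaning samples alone and with slides as a block. They became 6 with array weights, 4 with control arrays as replicates, 1 with the replicate block and 2 (Ren2 and Rspry1) under quantile scaling without the 2 arrays of low correlation; the last, cyclic loess and a fit of slides 1 and 2 alone were chosen after seeing the data. Deviations of same-numbered samples, which shared a slide, correlated at -0.322, 0.403 and -0.271, and those of other pairs ran from -0.644 to 0.607. The main test did not pair same-numbered samples, while the differences within slides and the block fits did. The difference between wild type and R-Cyp1b1-null called 1 gene, Muc3, both without the 2 low arrays and with array weights, and 0 otherwise. The difference from Cyp1b1-null called 25 genes with array weights and 0 under quantile scaling, normexp, weaning samples alone and quantile scaling without the 2 low arrays; leave-outs gave 0 to 1, with 0 without the deficient sample of slide 1. The cause was not tested. Of 275 named genes under 21 alternatives, 5347 of 5775 differences kept their direction. Of 25 genes with a difference of 2 or more, 1 turned: Muc3, at 0.54 without the filter, where another probe stands for it. Ren1 lay at -0.95 with the mean of its probes. Leaving out the 2 low arrays, of which 1 belongs to this comparison, gave 0 calls and a smallest adjusted p of 0.0776 in limma. Signal over background limits the dim genes, among them the 12 higher genes named.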

Other observations

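Cholesterol synthesis lay slightly lower in wild type and higher in Cyp1b1-null mice. Of 26 genes 13 lay lower on all 3 slides, beside 13.6% of all genes and 24.5% to 26.4% in the 2 brightest quintiles. The medians were -0.08, -0.22 and -1.91. After cyclic loess 10 lay lower and 6 higher, beside 18.1% and 13.8% of all genes, with medians of -0.26, -0.22 and -0.02. Sqle, the squalene epoxidase, differed by -0.87, -0.77 and -2.93, Nsdhl by -1.16, -0.74 and -2.76 and Fdps by -0.99, -0.97 and -0.30. In Cyp1b1-null mice Sqle differed by 4.91 ± 1.24 and Fdps by 3.20, and the list median was 1.92. The test of the difference for Sqle gave -6.43 ± 1.89 (SE; limma, adjusted p = 0.988).

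Genes of the liver's core functions were nearly level on slides 1 and 2. Fatty acid oxidation had medians of 0.07 and -0.04 over 42 genes, oxidative phosphorylation 0.23 and -0.01 over 42, bile acid genes 0.15 and 0.17 over 26, and ribosomal proteins 0.32 and -0.08 over 35. On slide 3 the same lists lay between -1.85 and -2.10. The bile acid enzyme Cyp7a1 lay at 1.16, 0.25 and -2.75. Leap2, a second antimicrobial peptide hormone of the liver, lay higher on slides 1 and 2, by 1.28 and 0.90, where Hamp lay lower, and at -2.11 on slide 3. Egfr (-1.34, -1.33 and -2.67) and the lysolipid transporter gene Mfsd2a (-2.01, -1.39 and -2.93) lay lower on all 3 slides, and Cdcp1 lay higher, by 1.75, 2.15 and 1.20. Over all genes 13.6% lay lower and 18.7% higher on all 3 slides. Of 43 xenobiotic genes 9 lay lower and 6 higher, of 30 interferon genes 2 and 6, and of 29 acute phase genes 6 and 3. Of 23 unfolded protein and heat shock genes 5 lay lower and 0 higher, and of 37 extracellular matrix genes 5 and 3. Growth arrest and stress genes (27), the growth axis (28), fetal liver genes (22) and endothelial markers (21) had medians of 0.17, 0.10, 0.39 and 0.19 on slide 1, of -0.03, 0.10, 0.02 and -0.02 on slide 2 and of -1.31, -1.60, -1.18 and -1.76 on slide 3. The 20 erythroid markers had medians of 0.24, 0.39 and 0.41, the 10 adipose markers of -0.24, 0.21 and 0.48, and the 8 kidney and adrenal markers of 0.12, 0.04 and -0.15.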
